A study of Mus musculus with 8 samples.

Results

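The genes described here make, load, sense and clear the inhibitory transmitter GABA, hold its receptors at the synapse and set the chloride gradient on which they act, together with 2 subunits of the related glycine receptor. They are 28 genes chosen by symbol: 14 subunits of GABA-A receptors, 2 subunits of the GABA-B receptor, 6 genes of GABA synthesis, vesicle loading, uptake and breakdown, 2 genes of the inhibitory postsynaptic scaffold, 2 chloride cotransporters and 2 glycine receptor subunits. All 28 were on the array, with 43 probes, and 25 of them were among the 29529 genes that passed the filter on dim signal, which keeps a probe if the scanner software called it well above background on 4 or more of the 8 arrays.

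The values come from hippocampal RNA that was pulled down with tagged ribosomes and measured on 1-colour arrays with 1 array per mouse. CTCF, the protein lost in the mutants, is a DNA-binding factor that helps fold chromosomes into loops. The 4 conditional knockout (CKO) mice carried loxP alleles of Ctcf on both chromosomes, and the 4 wild-type (WT) mice carried wild-type Ctcf. Both groups carried the Camk2a-Cre transgene and the RiboTag allele, in which Cre recombinase turns on a haemagglutinin-tagged ribosomal protein Rpl22. The controls were therefore also Cre mice. The series' design text gives the controls as loxP homozygotes without naming Cre for them, and the sample labels were followed. All mice were untreated C57BL/6 adults of at least 3 months, with 3 males and 1 female in each group, and each array is labelled as a separate biological replicate. The Camk2a promoter drives Cre in forebrain excitatory neurons, so these tagged ribosomes are a view of those cells and of whatever RNA came down with them. In such bulk samples fewer cells of a type and less RNA per cell cannot be told apart.

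GABA-A receptors are chloride channels built from several subunits, most often alpha, beta and gamma, and the alpha and delta subunits present help decide whether the channel serves the synapse or the tonic current outside it. GABA-B receptors are G protein-coupled and act on potassium and calcium channels. The direction of the GABA-A current rests on internal chloride, which the cotransporter made from Slc12a2 brings in and the one made from Slc12a5 takes out in mature neurons.

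Ctcf itself had a normalized log2 signal of -2.56, -2.42, -1.96 and -2.02 in CKO mice 1 to 4, against -1.11, -1.75, -1.47 and -1.15 in WT mice 1 to 4. Here and below the normalized log2 signal is log2 of the processed spot intensity minus the 75th percentile of its array. A value serves to compare mice for the same probe. Signals of different probes are set together only to rank genes by signal, to choose a gene's brightest probe and to sum markers. Every CKO mouse was below every WT mouse. The log2 difference, CKO minus WT, was -0.87, with p = 0.0286 in an exact permutation test (two-sided), the lowest p that 4 against 4 can reach. Over all genes the limma test gave an adjusted p of 0.724, above the threshold of 0.05. The labels do not place the loxP sites, so the probe may lie outside the deleted part.

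Between 72.2% and 81.5% of probes were well above background on the 8 arrays, with CKO 3 lowest and WT 1 highest. The arrays lay on 3 slides. WT 1 was alone on slide 1, slide 2 held CKO 1, CKO 2, WT 2 and WT 3, and slide 3 held CKO 3, CKO 4 and WT 4. In a fit with the slide as a fixed block WT 1 therefore adds nothing to the comparison of CKO with WT. The median difference was -0.52 in the dimmest 10% of genes and 0.16 in the brightest 10%, which held 5 of the 25 genes tested here, and with quantile normalization it was -0.076 and 0.026. All 12 excitatory neuron markers examined passed the filter, Camk2a and the vesicular glutamate transporter Slc17a7 among them, and both were well above background on all 8 arrays. Markers of other cells were also measured, 13 of 15 for astrocytes, 11 of 12 for oligodendrocytes and 13 of 14 for microglia. Dentate granule cell markers had a median difference of -0.19 over 15 genes, and choroid plexus markers 0.40 over 6. With the slide as a fixed block these were -0.26 and 0.41. The medians of the other marker lists ran from -0.11 to 0.19. With the slide as a fixed block they ran from -0.11 for cerebellar granule cells to 0.38 for oligodendrocytes, with 0.29 for microglia. The dentate and choroid plexus lists thus did not stand clearly apart from the others. In each of the marker lists 0 genes passed the limma threshold, and their part in the 25 genes was not tested. Precision is limited by the 4 arrays per group.

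None of the 25 genes differed between CKO and WT mice past the threshold, in either direction. The limma test, a linear model that shares the estimate of spread across genes, gave them Benjamini-Hochberg adjusted p values of 0.724 or more, and 0.00339% of all genes passed. At an unadjusted limma p under 0.05, 2 of the 25 were higher in CKO, Slc12a5 and Gabrg3, and 0 were lower, where 2.5% of all genes were higher and 2.8% were lower. That count was 0 without CKO 1, CKO 3, WT 1 or WT 3 and with the slide as a fixed block, and it was 3 without WT 4. It was also 0 within slide 2, within slide 3 and with the mean of a gene's probes, where the unadjusted p was 0.0662 for Slc12a5 and 0.209 for Gabrg3. No gene of the 25 had groups of 4 that did not overlap, which 3.32% of all genes had. The difference was above 0 for 17 genes and below 0 for 8, against 41.5% above 0 over all genes. With median scaling it was above 0 for 23 and below 0 for 2, against 57.6%. With quantile normalization these counts were 17 and 8, against 48.6%. The median difference of the 25 was 0.10, against -0.078 over all genes. It was 0.16 against -0.0098 with quantile normalization and 0.24 against 0.065 with median scaling. Within slide 2 the median of the 25 was 0.21, against -0.063 over all genes, and within slide 3 it was -0.014, against -0.0076. The median difference over all genes rose with signal, from -0.52 in the dimmest 10% to 0.16 in the brightest 10%. These held 2 and 5 of the 25, and 7 lay in a 10% with a median of 0.0035. All genes are thus not a background of like signal for the 25, and a comparison with genes of like signal was not tested.

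**Figure D1:**
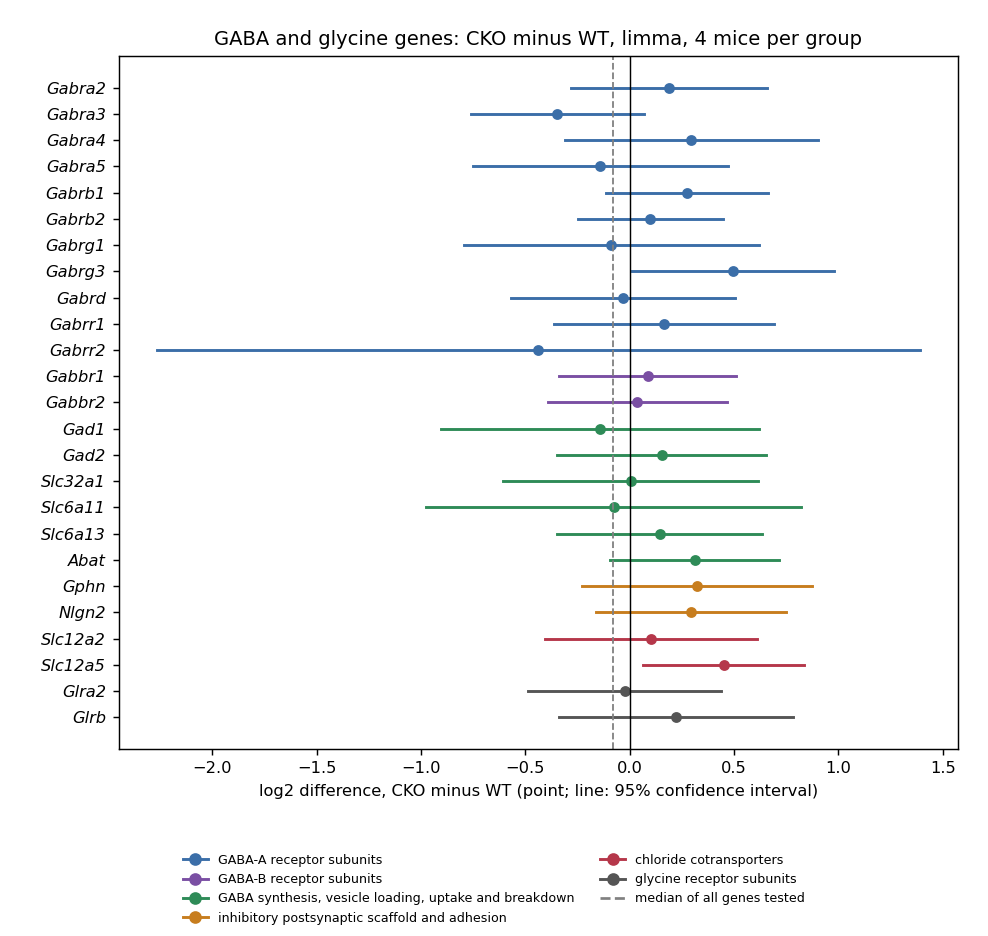
Log2 difference, CKO minus WT, of the 25 genes that passed the filter (points) with the 95% confidence interval of the limma test (lines), coloured by role, with the median of all genes as a dashed line. The intervals of Slc12a5 and Gabrg3 alone lie to the right of 0, and that of Gabrr2 is the widest.

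The gene with the smallest unadjusted p was Slc12a5, which encodes the potassium chloride cotransporter KCC2. Its signal was 5.33, 5.04, 5.31 and 4.85 in CKO mice 1 to 4, against 4.56, 4.86, 4.58 and 4.74 in WT mice 1 to 4. CKO 1, CKO 2 and CKO 3 were above every WT mouse, and CKO 4 was below WT 2 by a small margin. The mean was 5.13 ± 0.23 in CKO mice and 4.68 ± 0.14 in WT mice (SD, n = 4 each). The difference was 0.45 with a 95% confidence interval of 0.062 to 0.84, a signal 1.37 times that of WT, and limma gave an unadjusted p of 0.0275 and an adjusted p of 0.724. The difference was 0.47 within slide 2 and 0.34 within slide 3. It kept its sign in 24 of 24 alternative fits, from 0.32 to 0.59, and the unadjusted p was under 0.05 in 13 of them. Genes in the brightest 10%, Slc12a5 among them, had a median difference of 0.16. With quantile normalization that median was 0.026 and the difference of Slc12a5 was 0.36. The second Slc12a5 probe, farther along the same transcript, differed by 0.19, with 2.76, 2.59, 3.07 and 2.67 in CKO mice 1 to 4 and 2.70, 2.33, 2.60 and 2.70 in WT mice 1 to 4. There the groups overlapped more widely.

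The probes of Slc12a5 and Gabrg3 are shown because the unadjusted differences rest on them and because probes of the same gene gave different values. The first 30 bases of each probe of 60 bases are given as the array's files hold them, with the position of the whole probe in the mouse build mm9. Slc12a5 lies on the plus strand and Gabrg3 on the minus strand, and an exon annotation of mm9 was not used here.
Slc12a5, difference 0.45, chr2:164804887-164804946: atggccaccgttgtctttgtgggtgtcaag
Slc12a5, difference 0.19, chr2:164825109-164825168: ggtcagttctctcctttactgttgaatgct
Gabrg3, difference 0.49, chr7:63979612-63979671: gtttgttgtgctacctttcagcagcttggg
Gabrg3, difference 0.43, chr7:63979783-63979842: ttcccgacatccttcctgctgttcaacctg
Gabrg3, difference -0.039, chr7:64434940-64434999: tcgagattcaccaagtgcaatggaacctca

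The other chloride cotransporter, Slc12a2, encodes NKCC1, which brings chloride in. Its signal was -0.61, -0.55, -0.35 and -0.36 in CKO mice 1 to 4, against -0.011, -1.002, -0.78 and -0.48 in WT mice 1 to 4. The CKO mice lay inside the range of the WT mice, and the difference was 0.10 with a 95% confidence interval of -0.41 to 0.61. Every Slc12a2 value on slide 3 was above every value on slide 2. Of 13 tested kinases and modulators of these cotransporters, 0 passed the limma threshold in either direction, with a median difference of 0.064, which was 0.13 with the slide as a fixed block. The smallest unadjusted p values belonged to Neto2, an auxiliary protein of KCC2 and of kainate receptors, with a difference of 0.54, and to Wnk1, a chloride-sensing kinase, with a difference of 0.20.

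**Figure D2:**
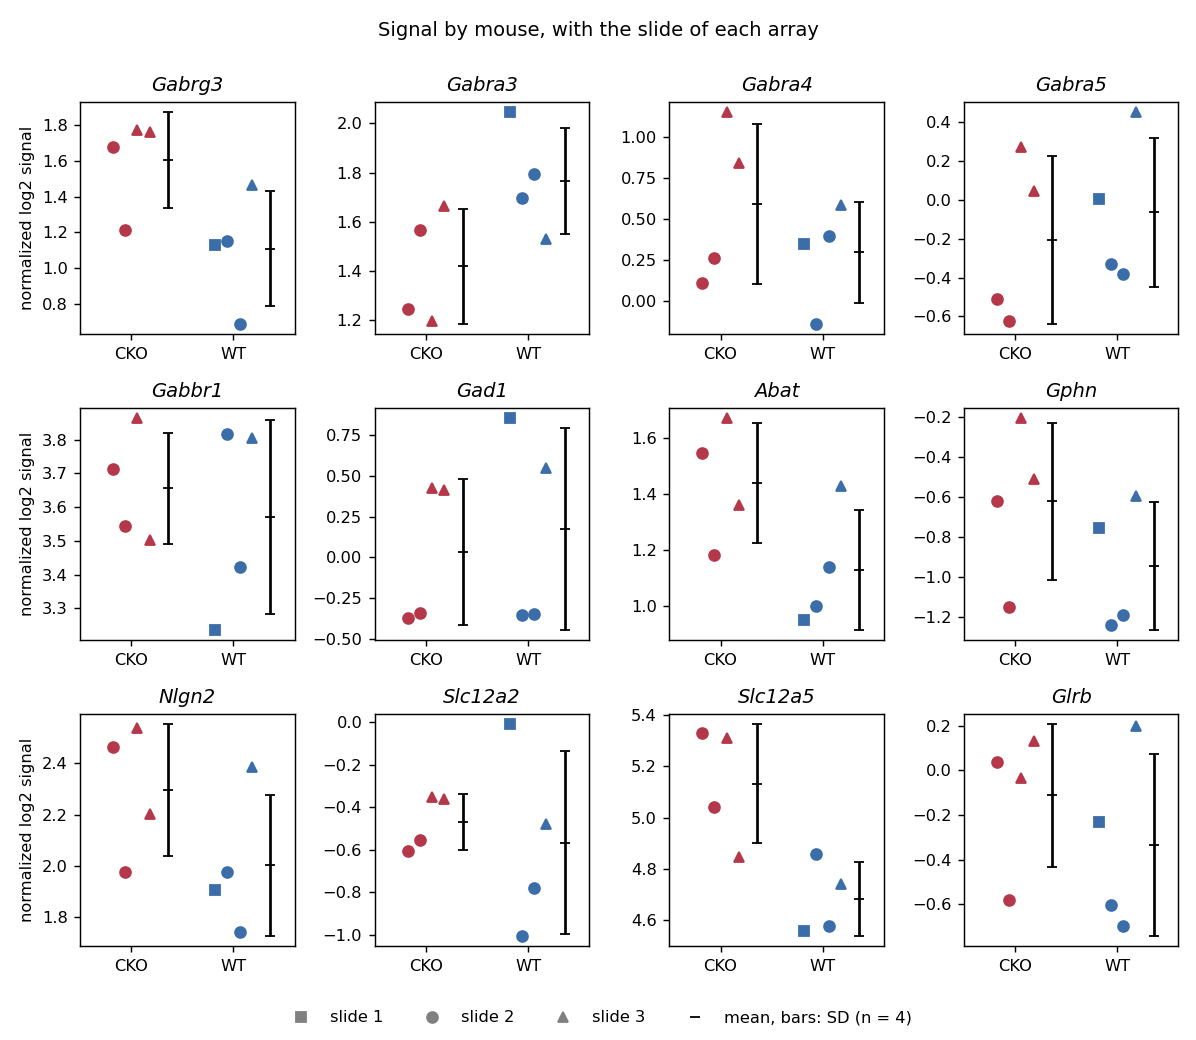
Normalized log2 signal of 12 genes in each mouse, CKO left of WT, with the slide of each array as the marker shape and the mean and SD of 4 mice beside the points. Slc12a5 separates all but CKO 4 from the WT mice. In Gad1, Gabra5, Gabra4, Gphn and Slc12a2 every slide 3 array is above every slide 2 array.

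Among the GABA-A receptor subunits, 11 of 14 were tested and 0 passed the limma threshold, with a median difference of 0.099. That median was 0.017 with the slide as a fixed block, 0.017 within slide 2 and -0.039 within slide 3. Gabrg3, the gamma 3 subunit, had a signal of 1.68, 1.21, 1.77 and 1.76 in CKO mice 1 to 4, against 1.13, 1.15, 0.69 and 1.47 in WT mice 1 to 4. CKO 1, CKO 3 and CKO 4 were above every WT mouse, and CKO 2 was below WT 4. The mean was 1.61 ± 0.27 in CKO mice and 1.11 ± 0.32 in WT mice (SD, n = 4 each). The difference was 0.49 with a 95% confidence interval of 0.012 to 0.98, and limma gave an unadjusted p of 0.0457 and an adjusted p of 0.724. It was 0.52 within slide 2 and 0.30 within slide 3. The sign held in 24 of 24 alternative fits, from 0.29 to 0.64, with an unadjusted p under 0.05 in 11.

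Gabrg3 had 3 probes, and they did not give the same picture. The second, next to the first on chromosome 7, had -0.16, -0.36, -0.44 and -0.34 in CKO mice 1 to 4, against -0.87, -0.66, -0.71 and -0.78 in WT mice 1 to 4. All 4 CKO mice were above all 4 WT mice on it. Its difference was 0.43, and limma run on each probe gave an unadjusted p of 0.0167 and an adjusted p of 0.738. The third probe, designed on a separate cDNA clone of the gene and lying much farther from the first than the second does, had -3.74, -4.45, -3.60 and -2.79 in CKO mice 1 to 4, against -2.44, -3.30, -3.99 and -4.69 in WT mice 1 to 4. These values were spread over more than 1 log2 unit in both groups and overlapped, and the difference was -0.039. Of the 38 probes of the 25 genes, 4 had an unadjusted limma p under 0.05, all higher in CKO, where 5.33% of all probes had one in either direction. They were the first and second probes of Gabrg3, the brightest of Slc12a5 and the second of Slc32a1, so they do not stand for separate genes. At the adjusted threshold 0 passed, as did 0% of all probes. On 2 of the 38 the groups of 4 did not overlap, both higher in CKO, against 1.71% of all probes.

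The alpha subunits, which help form the GABA binding site and differ in where in the neuron they sit, were tested for 4 of 5 genes. The largest of their differences was that of Gabra3, whose signal was 1.25, 1.57, 1.20 and 1.67 in CKO mice 1 to 4, against 2.04, 1.69, 1.79 and 1.53 in WT mice 1 to 4. CKO 1 and CKO 3 were below every WT mouse, and the other two CKO mice were inside the WT range. The difference was -0.35 with a 95% confidence interval of -0.76 to 0.067, limma gave an unadjusted p of 0.0907, and its sign held in all 24 alternative fits. The second Gabra3 probe differed by -0.068. Both lie on the minus strand of the X chromosome.
Gabra3, difference -0.35, chrX:69679357-69679416: ttacctctgtcaaacatatgtatatgagag
Gabra3, difference -0.068, chrX:69678031-69678090: ctgtagaaattgtgttttaaaatgctttgg

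Gabra2, Gabra4 and Gabra5 encode the alpha subunits 2, 4 and 5, and the alpha 5 subunit is known for tonic inhibition in hippocampal pyramidal cells. Gabra4 had a signal of 0.11, 0.26, 1.15 and 0.84 in CKO mice 1 to 4, against 0.35, -0.14, 0.40 and 0.58 in WT mice 1 to 4, with a difference of 0.29. Gabra5 had -0.51, -0.62, 0.27 and 0.046 in CKO mice 1 to 4, against 0.0035, -0.33, -0.38 and 0.45 in WT mice 1 to 4, with a difference of -0.14. In both genes the groups overlapped, and the arrays of slide 3 were above those of slide 2. Gabra2 differed by 0.19 on one probe and 0.094 on the other.

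The beta subunits Gabrb1 and Gabrb2, present in nearly all GABA-A channels, differed by 0.27 and 0.099. The 95% confidence interval of Gabrb1 ran from -0.12 to 0.66 and that of Gabrb2 from -0.25 to 0.44, and the other 2 probes of Gabrb1 differed by 0.020 and 0.21. Gabrg1 differed by -0.088 and Gabrd, the delta subunit of extrasynaptic channels, by -0.034. The rho subunits, best known from the retina, differed by 0.16 for Gabrr1 and by -0.44 for Gabrr2. Gabrr2 was well above background on 1 of the CKO and 3 of the WT arrays, and its 95% confidence interval ran from -2.27 to 1.39. It passed the filter with exactly the 4 arrays the filter asks for.

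The other GABA-A subunits on the array were not tested. Gabra6, the alpha 6 subunit of cerebellar granule cells, and Gabrq were well above background on none of the 8 arrays. One Gabre probe cleared it on 1 of the CKO and 2 of the WT arrays, and the other on none.

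In mm9 several GABA-A genes lie in groups. Gabrg1, Gabra2, Gabra4 and Gabrb1 lie together on chromosome 5, with differences of -0.088, 0.19, 0.29 and 0.27. Gabrg3 and Gabra5 lie on chromosome 7, with 0.49 and -0.14, and Gabrr1 and Gabrr2 on chromosome 4, with 0.16 and -0.44. No difference between neighbours was tested.

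Both GABA-B subunits were tested, and 0 passed the limma threshold. Gabbr1, which binds GABA, had a signal of 3.71, 3.55, 3.86 and 3.50 in CKO mice 1 to 4, against 3.24, 3.82, 3.42 and 3.80 in WT mice 1 to 4. The CKO mice spread less than the WT mice, and the groups overlapped. The difference was 0.085 with a 95% confidence interval of -0.34 to 0.51, and it was -0.043 with quantile normalization. The other Gabbr1 probes differed by 0.14 and 0.25. Gabbr2, which couples the receptor to its G protein, differed by 0.036 on the brightest probe and by -0.056 and -0.087 on the others. Of 18 genes of GABA-B auxiliary subunits and receptor trafficking, 0 passed in either direction and the median difference was 0.23, or 0.13 with quantile normalization. That median was 0.24 within slide 2 and 0.010 within slide 3. Kif5a, a kinesin motor that carries GABA-A receptors, had the smallest unadjusted p of that list, with a difference of 0.41. Next came Gabarapl1, an Atg8 family protein, with a difference of 0.39.

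**Figure D3:**
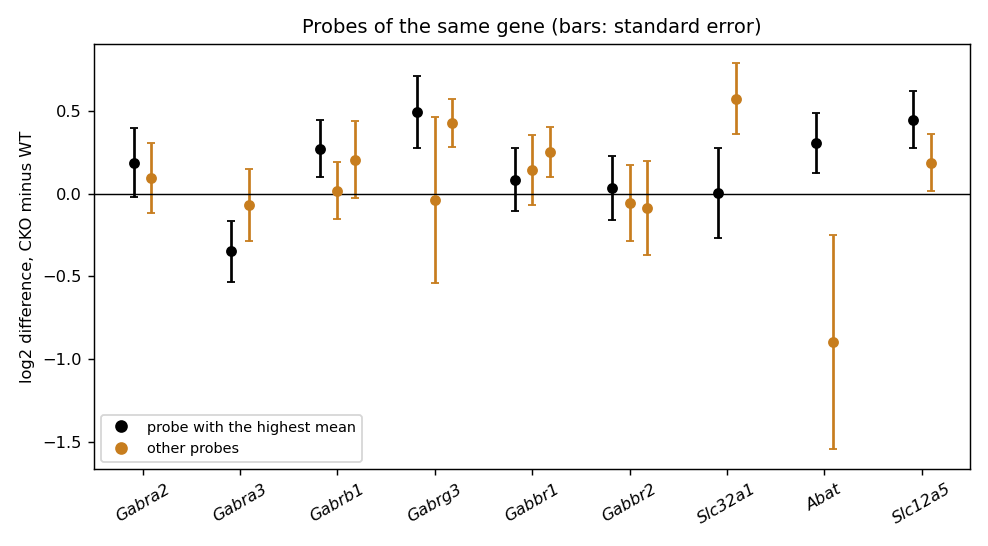
Log2 difference, CKO minus WT, of each probe of the 9 genes with more than 1 probe past the filter, with its standard error from limma run on each probe. The brightest probe of a gene is black. The probes of Gabrg3, Slc32a1 and Abat are the farthest apart.

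Among the 6 genes of GABA synthesis, vesicle loading, uptake and breakdown, 0 passed the limma threshold, and the median difference was 0.074. That median was 0.19 with quantile normalization, 0.16 with the slide as a fixed block, 0.26 within slide 2 and -0.019 within slide 3. Abat, the transaminase that breaks GABA down, had the smallest unadjusted p of the group. Its signal was 1.55, 1.18, 1.67 and 1.36 in CKO mice 1 to 4, against 0.95, 1.000, 1.14 and 1.43 in WT mice 1 to 4. Every CKO mouse was above WT 1, WT 2 and WT 3, while WT 4 was above CKO 2 and CKO 4. The difference was 0.31 with a 95% confidence interval of -0.096 to 0.72, and limma gave an unadjusted p of 0.118. The second Abat probe, well above background on 3 of 4 CKO arrays and designed on another cDNA, differed by -0.90, with CKO 3 at -7.15 and the other CKO mice between -4.52 and -3.59, against -4.32 to -3.83 in WT mice.

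Gad1 and Gad2 encode the glutamate decarboxylases that make GABA, and Slc32a1 the transporter that loads it into vesicles. All 3 are markers of inhibitory neurons, and whether any of these cells carried tagged ribosomes here was not tested. Gad1 had a signal of -0.37, -0.34, 0.43 and 0.42 in CKO mice 1 to 4, against 0.85, -0.35, -0.35 and 0.55 in WT mice 1 to 4. The mice of slide 2 were nearly equal, those of slide 3 were higher in both groups, and WT 1, alone on slide 1, was highest. The difference was -0.14, with -0.0070 within slide 2 and -0.13 within slide 3. Gad2 differed by 0.15.

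Slc32a1 had -0.35, -0.41, -1.45 and -0.24 on its brightest probe in CKO mice 1 to 4, against -0.43, -0.60, -0.75 and -0.69 in WT mice 1 to 4. CKO 3 stood apart from the rest of its group, and the difference was 0.0050. The second probe had -0.49, -0.30, -0.46 and -0.15 in CKO mice 1 to 4, against -0.52, -1.42, -0.95 and -0.81 in WT mice 1 to 4. There the groups did not overlap, with CKO 1 just above WT 1, and the difference was 0.58 (limma on each probe, unadjusted p = 0.0246, adjusted p = 0.738). The probe counted as brightest had means of -0.61 in CKO and -0.62 in WT mice, and the second probe -0.35 and -0.93. The choice between them thus rests on a small margin. Both probes lie on the plus strand of chromosome 2.
Slc32a1, difference 0.0050, chr2:158440166-158440225: aattccactgcatgatgaactggacacaca
Slc32a1, difference 0.58, chr2:158441324-158441383: aaactcatcttgtgcaatgtatccggtcgt

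Of 26 markers of interneurons, 22 were tested, 0 passed the limma threshold and the median difference was 0.066, or 0.17 with quantile normalization and 0.12 with the slide as a fixed block. The difference was above 0 for 12 of the 22. It ran from -0.58 for Dlx5, a transcription factor of developing interneurons, to 1.71 for Tac1, the tachykinin precursor. Tac1 was well above background on 3 of 4 WT arrays, with WT 2 at -7.04, and without WT 2 its difference was 0.91. Vip, Nkx2-1, Sox6 and Crh did not pass the filter. The summed linear signal of the 22, relative to the 75th percentile of each array, was 74.5 to 112 in CKO mice and 74.8 to 92.6 in WT mice, and the probes of Lhx6 and Cck held 86.8% to 91.2% of it. Without them the sum of the other 20 was 9.27 to 12.0 in CKO mice and 8.14 to 9.89 in WT mice. The part of interneuron RNA in the values of Gad1, Gad2 and Slc32a1 was not tested, and immunoprecipitation input RNA was not analysed here.

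Slc6a11 and Slc6a13 encode plasma membrane GABA transporters of glia and of the meninges and other tissues. Slc6a11 differed by -0.078 and Slc6a13 by 0.14. Slc6a11 was -4.16, -2.86, -3.13 and -3.65 in CKO mice 1 to 4, against -3.13, -3.03, -4.44 and -2.89 in WT mice 1 to 4, with WT 3 apart from its group. Astrocyte markers had a median difference of 0.17 over 13 genes, with a summed linear signal of 37.0 to 49.9 in CKO mice and 34.8 to 38.8 in WT mice, and their part in Slc6a11 was not tested. That median was 0.37 within slide 2 and -0.012 within slide 3. Without Aldoc and Slc1a2, which held 50.7% to 61.3% of it, the sum was 15.7 to 21.1 in CKO mice and 15.8 to 19.1 in WT mice.

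Of 11 other tested genes of GABA and glycine metabolism and transport, 0 passed the limma threshold, and the median difference was 0.088, or 0.13 with quantile normalization. Maob, a monoamine oxidase that also serves astrocytic GABA synthesis, had the smallest unadjusted p there, 0.00543. Its signal was -3.00, -3.15, -2.36 and -3.23 in CKO mice 1 to 4, against -3.44, -3.78, -4.26 and -4.70 in WT mice 1 to 4. These groups did not overlap, as in 3.32% of all genes. Groups without overlap, higher in CKO, were also seen for Gabarapl1 and Nsf of the receptor trafficking list. The Maob difference was 1.11, with an adjusted limma p of 0.724. Slc38a3, a glutamine transporter, differed by 0.37.

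The scaffold genes were Gphn, for gephyrin, which anchors GABA-A and glycine receptors beneath the membrane, and Nlgn2, the neuroligin of inhibitory synapses. Neither passed the limma threshold. Gphn had -0.62, -1.15, -0.21 and -0.51 in CKO mice 1 to 4, against -0.75, -1.24, -1.19 and -0.59 in WT mice 1 to 4. The difference was 0.32 with a 95% confidence interval of -0.23 to 0.87, and CKO 2 lay among the low WT mice. Every Gphn value on slide 3 was above every value on slide 2. Nlgn2 had 2.46, 1.97, 2.54 and 2.20 in CKO mice 1 to 4, against 1.90, 1.97, 1.74 and 2.39 in WT mice 1 to 4. Its difference was 0.29 with a 95% confidence interval of -0.16 to 0.75. It was 0.36 within slide 2 and -0.014 within slide 3.

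Of 18 tested organizers of the inhibitory synapse beside these, 0 passed in either direction, with a median difference of 0.12, or 0.071 with the slide as a fixed block. Mdga1, which binds neuroligin 2 and limits its contact with neurexin, differed by 0.48, and Clptm1, which holds GABA-A receptors back in the secretory pathway, by 0.40. These had the smallest unadjusted p values of that list.

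The glycine receptor subunits were both tested, and 0 passed the limma threshold. Glrb, the beta subunit that binds gephyrin, had 0.035, -0.58, -0.036 and 0.13 in CKO mice 1 to 4, against -0.23, -0.60, -0.70 and 0.20 in WT mice 1 to 4. The groups overlapped over most of their range, and the difference was 0.22 with a 95% confidence interval of -0.34 to 0.78. Glra2, the alpha 2 subunit of immature neurons, differed by -0.024.

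Several of these genes had different signals on different slides. In a fit with slide and genotype together, chosen after seeing the data, 3 of the 25 differed between slide 3 and slide 2 past an adjusted limma p of 0.05, all higher on slide 3. They were Gad1 with 0.82 (adjusted p = 0.0223), Gabra5 with 0.76 (adjusted p = 0.0249) and Gabra4 with 0.67 (adjusted p = 0.04998). Over all genes 20.2% passed, 4.39% being higher on slide 3. With quantile normalization Gabra4 no longer passed (adjusted p = 0.0599). On 6 of the 25 every slide 3 array was above every slide 2 array, against 13.1% of all genes, and on 0 was every slide 3 array below, against 26.4%. What distinguishes the slides is not given in the sources used here.

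**Figure D4:**
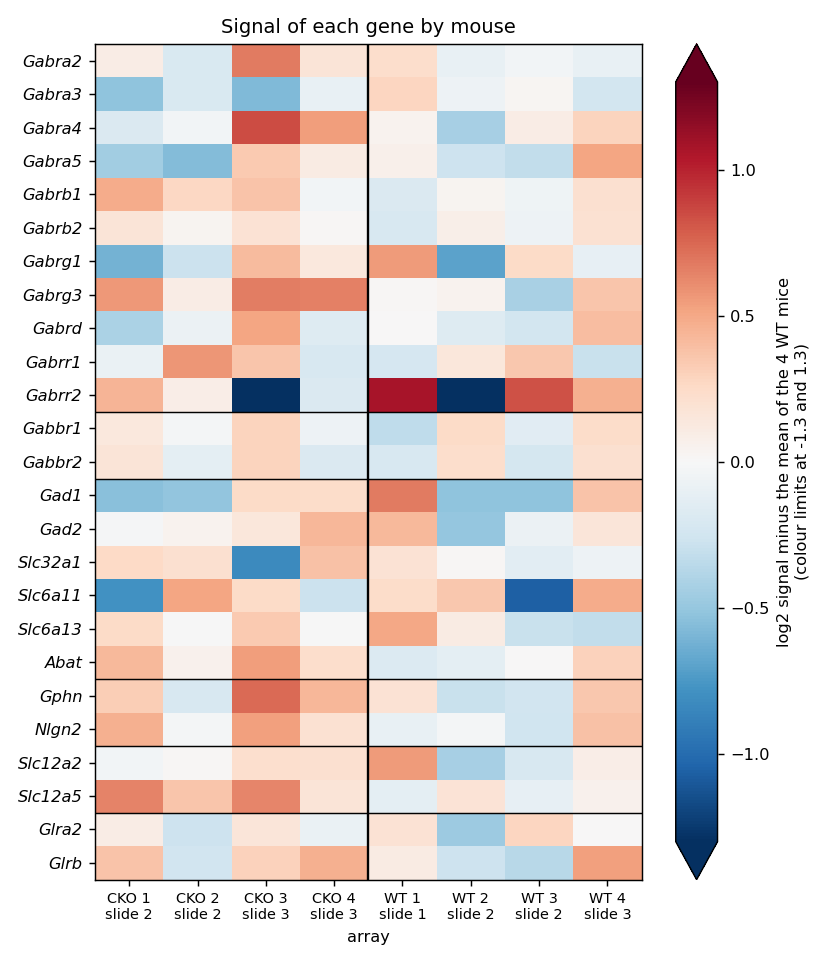
Log2 signal of the 25 genes in each mouse minus the mean of the 4 WT mice, CKO columns left of WT columns, with the slide under each array and black lines between roles. Values past the colour limits belong to Gabrr2 alone, with CKO 3 at -2.09 and WT 2 at -2.37.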

How the data were processed

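The labels' protocols state that ribosome-bound RNA was amplified, converted to labelled cDNA and hybridised in Cy5. The deposited scanner files hold the spot intensity of the red channel, made with Agilent Feature Extraction (version 11.5 in the submitters' processing notes, 11.5.1.1 per the file headers) with mm9 probe positions. The authors' deposited value table, also an intensity, has 7359 to 11803 blanks per array, and its normalization is not given in the sources used here.

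Outlier spots were dropped by their flags, repeated spots of a probe averaged, and each array's 75th percentile was subtracted from the log2 processed signal. Of 55681 probes 18 were lost to flags, leaving 55663. Probes were kept if well above background on 4 or more of the 8 arrays, which 44316 were, and a gene was its brightest probe. Of the 28 genes 11 had more than 1 probe. Names came from probe accessions through RefSeq's GRCm38.p6 table, which matched 28324 probes, and otherwise from the files. The comparison of CKO with WT used limma (version 3.58.1, R 4.3.3, two-sided, Benjamini-Hochberg over all genes, threshold 0.05), a fit tested on simulated data.

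The 28 genes and the pathway and marker lists were chosen with earlier results of these data known. Values of every mouse are given for Ctcf and, in each role, for the gene with the smallest p and that with the largest difference, and for genes whose probes disagree in sign with 1 at an unadjusted p under 0.05. From each pathway list the 2 genes with the smallest p are named. Gabra3, Gabra4, Gabra5, Gad1, Slc32a1, Slc6a11 and Slc12a2 were given by mouse after their values were seen. Maob, of a pathway list, was also given by mouse, outside the rule above. Alternatives were other scalings and background correction, the authors' values, other filters, the mean of probes, single probes, slide, sex or replicate number in the fit, males only, each slide alone, another prior variance and each array left out. Sums of markers without the 2 brightest and Tac1 without WT 2 were added after seeing the data.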

Additional observations from a re-analysis of the deposited data

Results flagged for a closer look

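Each group of 4 mice was examined on the 38 probes past the filter, 76 groups in all, for a mouse whose gap to the nearest other exceeds Dixon's 95% critical share of the group's range. Chance flags about 1 in 20 groups, and 2 of the 76 were flagged. On the brightest Slc32a1 probe CKO 3 had a normalized log2 signal of -1.45, with the next CKO mouse at -0.41. On the Slc6a11 probe WT 3 had -4.44, with the next WT mouse at -3.13.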

How the results depend on the processing

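The 25 genes had 0 past the threshold in every one of the 25 alternatives, single probes included, and 0 of 599 values crossed it, with adjusted p values of 0.363 or more. The count at an unadjusted limma p under 0.05 was 0 to 4 higher and 0 to 1 lower. With each array left out in turn the median difference ran from 0.068 to 0.15 and the difference of Ctcf from -0.996 to -0.76. Without CKO 1, CKO 3, WT 1 or WT 3, within either slide, with the slide as a fixed block (under quantile normalization too) and with the mean of a gene's probes, no gene had an unadjusted p under 0.05. Replicate numbers are not paired by the labels, and same-numbered mice had correlations of -0.32, 0.39, -0.42 and 0.068 in their deviations from the group means over genes. With the replicate number as a block the count past the threshold was 0, 0 genes had an unadjusted p under 0.05 and the median was 0.10. Slide 3 holds WT 4 alone against 2 CKO arrays, and it is assumed to vary like the others. Gabrr2 was blank on 1 CKO array in the authors' values, which its fit there drops. Single probes aside, the sign held in all alternatives for 7 genes, Gabra2, Gabra3, Gabra4, Gabrg3, Slc6a13, Gphn and Slc12a5, and the Gabrg3 probe farthest from the brightest one differed by -0.039. For the other 18 it changed in 80 values, at unadjusted limma p values of 0.347 or more, and the cause was not tested.

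The differences whose sign changed are given here by setting. With the authors' values the value was -0.087 for Gabrb2, 0.38 for Gabrg1, 0.35 for Gabrr2, -0.079 for Gabbr1, -0.16 for Gabbr2, 0.38 for Slc6a11 and 0.25 for Glra2. In males it was 0.058 for Gabrg1, -0.11 for Slc32a1 and 0.15 for Glra2. With the mean of a gene's probes the value was -0.036 for Gabbr2 and -0.29 for Abat. With median scaling it was 0.0029 for Gabra5, 0.056 for Gabrg1, 0.11 for Gabrd, 0.0014 for Gad1, 0.066 for Slc6a11 and 0.12 for Glra2. With normexp and quantile normalization the value was -0.010 for Gabrb2, 0.080 for Gabrg1, -0.086 for Gabbr2, 0.064 for Slc6a11 and 0.059 for Glra2. With quantile normalization it was -0.047 for Gabrb2, 0.26 for Gabrg1, -0.043 for Gabbr1, -0.10 for Gabbr2, 0.22 for Slc6a11 and 0.23 for Glra2. With quantile normalization and the slide as a block (chosen after seeing the data) the value was -0.088 for Gabrb2, 0.28 for Gabrg1, -0.13 for Gabbr1, -0.15 for Gabbr2, 0.17 for Slc6a11 and 0.19 for Glra2. Within slide 2 it was -0.0049 for Gabrr1, 1.03 for Gabrr2, 0.22 for Slc6a11 and 0.016 for Glra2. Within slide 3 the value was -0.039 for Gabrb1, -0.095 for Gabrb2, 0.38 for Gabrg1, -0.12 for Gabbr1, -0.16 for Gabbr2, -0.15 for Slc32a1, -0.014 for Nlgn2, 0.028 for Glra2 and -0.15 for Glrb. With the slide as a fixed block it was 0.017 for Gabrg1, -0.043 for Gabbr1, -0.050 for Gabbr2 and 0.021 for Glra2. With the slide as a random block the value was -0.0050 for Gabbr2. With each array left out in turn it ran from -0.32 to 0.097 for Gabrg1, -0.22 to 0.10 for Gabrd, -0.047 to 0.11 for Gabbr2, -0.12 to 0.28 for Slc32a1, -0.43 to 0.16 for Slc6a11, -0.18 to 0.068 for Glra2, -1.23 to 0.11 for Gabrr2, -0.026 to 0.17 for Gabbr1, -0.32 to 0.083 for Gad1, -0.013 to 0.29 for Gad2, -0.044 to 0.29 for Slc12a2 and -0.30 to 0.031 for Gabra5.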
